A study of Mus musculus with 10 samples.

Results

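Sensors of foreign nucleic acid are proteins that recognise viral RNA or DNA, and sometimes a cell's own double-stranded RNA. The 10 genes described here, of 55401 genes in the deposited table, were chosen by name and all 10 were found, each in 1 row. They are Ddx58, Ifih1, Dhx58, Tlr3, Mavs, Tbk1, Irf3, Adar, Mx1 and Isg15. The RNA came from round spermatids, the haploid cells that follow meiosis, isolated from adult male CD1 mice, an outbred stock. Under isoflurane, the testes of 5 mice touched water held at 42 °C for 30 minutes, and those of another 5 mice water held at 33 °C for 30 minutes. All 10 mice were thus anaesthetised and were killed once they had woken. The labels name no mutation or transgene.

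RIG-I (Ddx58) and MDA5 (Ifih1) are helicases that bind viral RNA in the cytosol and signal through MAVS on mitochondria. The kinase TBK1 then activates the transcription factor IRF3, which switches on interferon genes, and interferon in turn switches on Mx1, Isg15 and the sensors themselves. LGP2 (Dhx58) is a relative of both helicases that lacks their signalling domains and modulates them, TLR3 senses double-stranded RNA in endosomes, and ADAR edits the cell's own double-stranded RNA so that MDA5 does not respond to it. In the testis, round spermatids transcribe much of the genome, transposable elements (TE) included.

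The interferon response is commonly read from a short promoter element, the interferon-stimulated response element, here searched by a core of it, GAAANNGAA, on both strands of the 250 bases before each gene's start (RefSeq, GRCm38.p6). Promoter entries were matched for 8 of the 10 genes, all but Dhx58 and Mx1. Of 32851 promoters of the same length, 7.13% held a match. Among the 8 genes, Isg15 had 3 overlapping matches that together cover 21 bases, from 78 to 58 bases before the start, Ifih1 had 1 match that begins 112 bases before the start, and Adar had 1 match in 1 of its 3 promoters. No match to GAANNTTC, a form of the heat shock core (6.69% of promoters), was found in the 8 genes. Nor was any to the gamma-activated sequence TTCNNNGAA (7.02%), and both were searched the same way. Other arrangements of the heat shock core were not searched, so its absence from these promoters is not shown. The promoter of Isg15 (chr4:156200819-156201068, minus strand) is shown because its gene was close to silent, and that of Ddx58 (chr4:40239826-40240075, minus strand) because its gene had the largest fitted difference among the 8 genes that could be tested. Both are written 5′ to 3′, and capitals mark the matches to GAAANNGAA.
Isg15: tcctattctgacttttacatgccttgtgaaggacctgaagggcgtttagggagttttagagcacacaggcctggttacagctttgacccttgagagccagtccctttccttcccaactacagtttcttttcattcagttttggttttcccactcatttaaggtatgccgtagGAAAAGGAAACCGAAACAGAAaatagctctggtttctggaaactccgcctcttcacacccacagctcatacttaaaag
Ddx58: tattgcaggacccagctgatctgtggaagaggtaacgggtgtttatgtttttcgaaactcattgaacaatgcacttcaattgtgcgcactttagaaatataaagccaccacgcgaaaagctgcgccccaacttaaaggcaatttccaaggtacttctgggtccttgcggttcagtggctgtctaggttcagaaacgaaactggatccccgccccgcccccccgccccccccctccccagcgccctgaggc

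The libraries held 60623568 to 102086073 counts at 42 °C and 92311183 to 117723075 at 33 °C. The shallowest, 42 °C replicate 2, also stood apart by TE, which took 16.2% of its counts, against 5.79 to 7.30% in the other 4 libraries at 42 °C and 4.62 to 9.07% at 33 °C. Markers of the isolated cells were abundant: the acrosomal gene Acrv1 averaged 233 ± 57.3 CPM (counts scaled to a library of 1000000) at 42 °C and 180 ± 60.5 CPM at 33 °C (SD, n = 5 each). The 11 round spermatid markers summed to 1247 to 1932 CPM at 42 °C and 909 to 1739 CPM at 33 °C. Spermatocyte markers were abundant too, with a sum over 11 genes of 1467 to 1733 CPM at 42 °C and 1399 to 1936 CPM at 33 °C. In every library except 42 °C replicate 4, the spermatocyte sum lay above the round spermatid sum. These sums add different genes without regard to their length, so they do not measure the share of each cell type. Stag3 alone gave 641 CPM of the spermatocyte sum at 42 °C and 713 CPM at 33 °C on average. The 15 macrophage and leukocyte markers summed to 9.05 to 13.2 CPM at 42 °C and 9.46 to 14.2 CPM at 33 °C. None of the 15 was at 0 in all libraries, and 0 of the 12 tested passed the test described next. In such bulk RNA, fewer cells of a type and less RNA per cell cannot be told apart.

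LGP2 was by far the most abundant of the sensors. To compare genes, CPM was divided by the length of each gene's merged exons in kb. On that scale Dhx58 averaged 20.5 ± 2.93 CPM per kb at 42 °C, against 24.8 ± 2.62 at 33 °C (SD, 5 libraries each), above 88.7% of the genes tested. Irf3 came next, with 4.98 ± 0.768 CPM per kb at 42 °C, against 5.18 ± 1.06 at 33 °C. Neither gene's libraries overlapped with those of the next gene in the order. Mx1 followed with 1.09 ± 0.302 CPM per kb at 42 °C, against 0.820 ± 0.280 at 33 °C, and Tbk1 with 0.639 ± 0.0949 at 42 °C and 0.624 ± 0.0794 at 33 °C. These 2 genes overlapped in both groups.

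The other RNA sensors and the adaptor were low. Ddx58 averaged 0.445 ± 0.136 CPM per kb at 42 °C, against 0.273 ± 0.0565 at 33 °C, above 27.8% of the genes tested. Its range overlapped with that of Mavs in both groups, with that of Tbk1 at 42 °C and with that of Adar at 33 °C. Mavs averaged 0.278 ± 0.0551 CPM per kb at 42 °C, against 0.283 ± 0.0238 at 33 °C. Adar averaged 0.154 ± 0.0220 at 42 °C and 0.151 ± 0.0309 at 33 °C. Ifih1, at 0.0136 ± 0.00440 at 42 °C and 0.0153 ± 0.00590 at 33 °C, lay above 0.149% of the genes tested. Within a library, Dhx58 exceeded Ddx58 per exonic base by 50.9 ± 20.1 times at 42 °C and by 96.3 ± 33.0 times at 33 °C (SD, n = 5 each). It exceeded Ifih1 by 1069 to 2183 times at 42 °C and by 934 to 2680 times at 33 °C, ratios that rest on few Ifih1 counts.

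**Figure D1:**
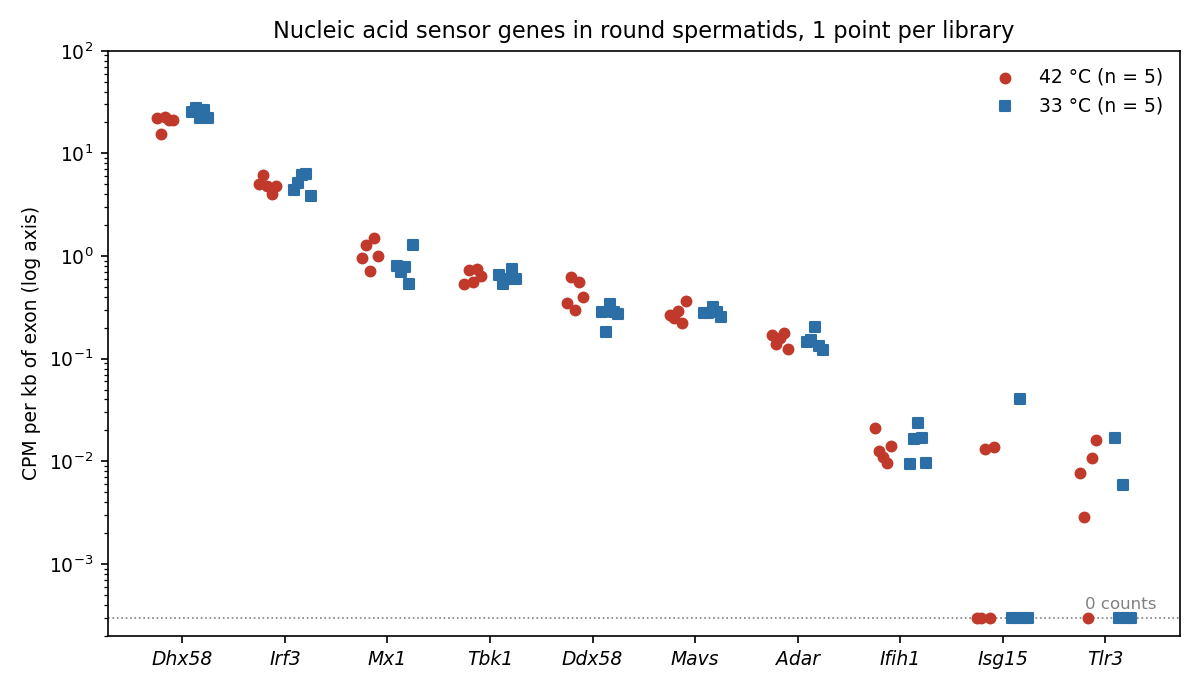
CPM per kb of exon on a log axis for the 10 genes, 1 point per library, with 42 °C (red circles) left of 33 °C (blue squares) and libraries with 0 counts on the dotted line. Dhx58 lies highest in every library (15.4 to 22.7 CPM per kb at 42 °C, 22.1 to 27.9 at 33 °C), and Ifih1, Isg15 and Tlr3 lie lowest.

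Of the 10 genes, 8 had enough counts to be tested with edgeR's quasi-likelihood test over 26025 genes and TE subfamilies, and none passed a Benjamini-Hochberg adjusted p of 0.05. Over all features 0.0884% passed as higher at 42 °C and 0.00384% as lower. DESeq2 and limma voom also called 0 of the 8, where DESeq2 called 0.989% of its features higher and 0.119% lower, and limma voom 0.476% higher and 0.111% lower. By its unadjusted p under 0.05 edgeR had 1 of the 8, Ddx58, against 8.56% of all features higher and 2.94% lower. The groups did not separate without overlap for any of the 8, as they did for 1.32% of all features higher and 0.68% lower. Log2 fold changes, 42 °C minus 33 °C, were positive for 4 genes and negative for 4, beside 48.9% positive over all features.

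Ddx58 (ENSMUSG00000040296, chromosome 4, 40203773 to 40239828, GRCm38) had the largest fitted difference of the 8. It stood at 2.47, 4.36, 2.12, 3.91 and 2.84 CPM in 42 °C replicates 1 to 5, against 2.03, 1.29, 2.39, 1.99 and 1.90 CPM in 33 °C replicates 1 to 5. Of the 42 °C libraries 4 lay above every 33 °C library, and replicate 3 lay among them. The counts behind these values were 1374 at 42 °C and 919 at 33 °C in all. On the log2 scale the difference was 0.70 (95% interval 0.20 to 1.21, SE 0.23, edgeR adjusted p = 0.370), or 1.63-fold. The unadjusted p was 0.0105 in that edgeR fit, and 2.79% of all features had a smaller one. Over the alternatives the adjusted p ran from 0.112 (DESeq2) to 0.799, and the log2 fold change was 0.43 with limma voom, where libraries carry quality weights.

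The 2 highest libraries for Ddx58 were 42 °C replicate 2, the one with the largest TE share, and 42 °C replicate 4, whose TE share was 7.30%. Without 42 °C replicate 2 the difference was 0.60 on the log2 scale (SE 0.23, edgeR adjusted p = 0.473). Markers of late germ cells had, like Ddx58, positive log2 fold changes in 10 of 11 round spermatid markers and 9 of 9 elongating spermatid markers, none past the test. The elongating markers summed to 2647 to 6985 CPM at 42 °C and 2117 to 4803 CPM at 33 °C. Log2 fold changes were also positive in 6 of 7 peritubular and stromal markers, 5 of 6 each of endothelium, Sertoli cells and spermatogonia, 6 of 12 of leukocytes, 4 of 11 of spermatocytes and 0 of 6 of Leydig cells, none past the test. Their part in the result was not tested.

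Ifih1 (chromosome 2, 62595798 to 62646255) gave only 51 counts over the 5 libraries at 42 °C and 61 over the 5 at 33 °C. The counts were 17, 7, 9, 7 and 11 at 42 °C, against 7, 15, 19, 13 and 7 at 33 °C. The groups overlapped throughout, and the 95% interval of the fold was 0.526 to 1.52, which on the log2 scale was the widest among the 8 tested genes.

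Dhx58 (ENSMUSG00000017830, chromosome 11, 100694884 to 100704271) had 73.1, 50.5, 74.2, 68.6 and 69.3 CPM in 42 °C replicates 1 to 5, against 82.9, 91.3, 72.2, 87.2 and 72.7 CPM in 33 °C replicates 1 to 5. At 33 °C, replicates 1, 2 and 4 lay above every 42 °C library, and replicates 3 and 5 lay within the 42 °C range. The means were 67.1 ± 9.59 CPM at 42 °C, against 81.2 ± 8.59 CPM at 33 °C (SD, n = 5 each). The fold was 0.826 (95% interval 0.683 to 1.00), or -0.28 on the log2 scale (SE 0.13, edgeR adjusted p = 0.435, and 0.223 to 0.799 over the alternatives). The lowest value came from 42 °C replicate 2, and without it this became -0.16 (SE 0.10, edgeR adjusted p = 0.557). The gene Kat2a ends 474 bases before the start of Dhx58 on the same strand and averaged 31.5 CPM at 42 °C, against 35.7 CPM at 33 °C. The part of Kat2a in the Dhx58 counts was not tested. The antisense gene Dhx58os overlaps 2637 bases of Dhx58, 141 of them exonic in both, and averaged 0.0179 CPM at 42 °C and 0.0225 CPM at 33 °C.

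Tlr3 and Isg15 were below the count filter. Tlr3 (chromosome 8, 45395665 to 45411080) had 4, 1, 0, 5 and 8 counts in 42 °C replicates 1 to 5, against 8, 0, 3, 0 and 0 in 33 °C replicates 1 to 5. Summed per group this was 0.0397 CPM at 42 °C (exact Poisson 95% interval 0.0236 to 0.0628) and 0.0228 CPM at 33 °C (0.0114 to 0.0408), and these intervals cover counting error only. They overlap, but overlap of intervals is no test of a difference, and no difference is claimed at this depth. At 33 °C, 8 of the 11 counts came from replicate 1. Gm45542, which overlaps 698 bases of Tlr3 in antisense (381 of them exonic in both), averaged 0 CPM in both groups.

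Downstream of the sensors, the adaptor, the kinase and the transcription factor did not pass the test, with log2 fold changes between -0.06 and 0.03. Mavs (chromosome 2, 131234063 to 131248025) had 0.893, 0.830, 0.971, 0.739 and 1.22 CPM at 42 °C, against 0.926, 0.932, 1.08, 0.949 and 0.856 CPM at 33 °C. Tbk1 (chromosome 10, 121546455 to 121586787) had 2.08, 2.83, 2.18, 2.90 and 2.50 CPM at 42 °C, against 2.54, 2.10, 2.31, 2.92 and 2.33 CPM at 33 °C. Irf3 (chromosome 7, 44997648 to 45002848) had 17.5, 21.1, 16.7, 13.8 and 16.6 CPM at 42 °C, against 15.2, 17.8, 21.0, 21.8 and 13.4 CPM at 33 °C. The groups covered nearly the same range for Tbk1 and Irf3, and the 42 °C range of Mavs took in all of its 33 °C range. The 95% interval of the fold was 0.739 to 1.31 for Mavs, 0.800 to 1.31 for Tbk1 and 0.752 to 1.23 for Irf3, so a doubling of any of them lay outside it. Irf3 shares 1065 bases, 88 of them exonic, with Bcl2l12 on the opposite strand (20.3 CPM at 42 °C, 24.7 CPM at 33 °C). Tbk1 starts 592 bases past the end of Xpot on the same strand (70.9 CPM at 42 °C, 89.0 CPM at 33 °C). The part of Bcl2l12 in the Irf3 counts and of Xpot in the Tbk1 counts was not tested.

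The RNA editing enzyme Adar (chromosome 3, 89715022 to 89753446) had 1.38, 1.13, 1.28, 1.44 and 1.01 CPM at 42 °C, against 1.19, 1.22, 1.64, 1.08 and 0.991 CPM at 33 °C. The groups overlapped, and the fold had a 95% interval of 0.762 to 1.37. On the opposite strand Chrnb2, a nicotinic receptor subunit at 11.8 CPM at 42 °C, against 13.1 CPM at 33 °C, overlaps 7252 bases of Adar, of which 1365 are exonic in both. The libraries were stranded but the strand setting of the counting is not given in the sources used here, so reads of Adar and Chrnb2 in the shared exons cannot be told apart.

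Of the interferon effectors, Mx1 was detected and Isg15 was not above the limit that 3 counts set. Mx1 (chromosome 16, 97447035 to 97462907), a GTPase that blocks influenza viruses, is listed in the deposited table as a polymorphic pseudogene, as many laboratory strains carry a defective allele. It had 3.59, 4.88, 2.70, 5.63 and 3.81 CPM in 42 °C replicates 1 to 5, against 3.00, 2.64, 2.97, 2.04 and 4.87 CPM in 33 °C replicates 1 to 5. The groups overlapped: 33 °C replicate 5 lay above 3 of the 42 °C libraries. The fold was 1.33 (95% interval 0.907 to 1.94), or 0.41 on the log2 scale (SE 0.25, edgeR adjusted p = 0.501). Without 33 °C replicate 5 it was 0.67 (SE 0.23, edgeR adjusted p = 0.139), where the adjusted p ran from 0.139 to 0.802 over the alternatives.

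Isg15, a ubiquitin-like protein that is among the genes most strongly switched on by interferon, lies at 156199455 to 156200796 of chromosome 4 in the deposited table. It had 2 counts at 42 °C (1 each in replicates 3 and 5) and 3 counts at 33 °C (all in replicate 3). The exact Poisson 95% interval of the summed level was 0.000535 to 0.0159 CPM at 42 °C and 0.00128 to 0.0182 CPM at 33 °C. Both groups were at or under 3 counts, the floor used per group, so no fold is given. The promoter printed above for this gene is thus that of a gene with almost no RNA in these cells. Ddx58, Mavs, Tbk1 and Irf3, whose windows held no match, were detected in every library. So were Ifih1, with 1 match, and Adar, with 1 match in 1 of its 3 promoters. Tlr3, without a match, had 18 counts at 42 °C and 11 at 33 °C. A relation between matches and level was not tested.

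**Figure D2:**
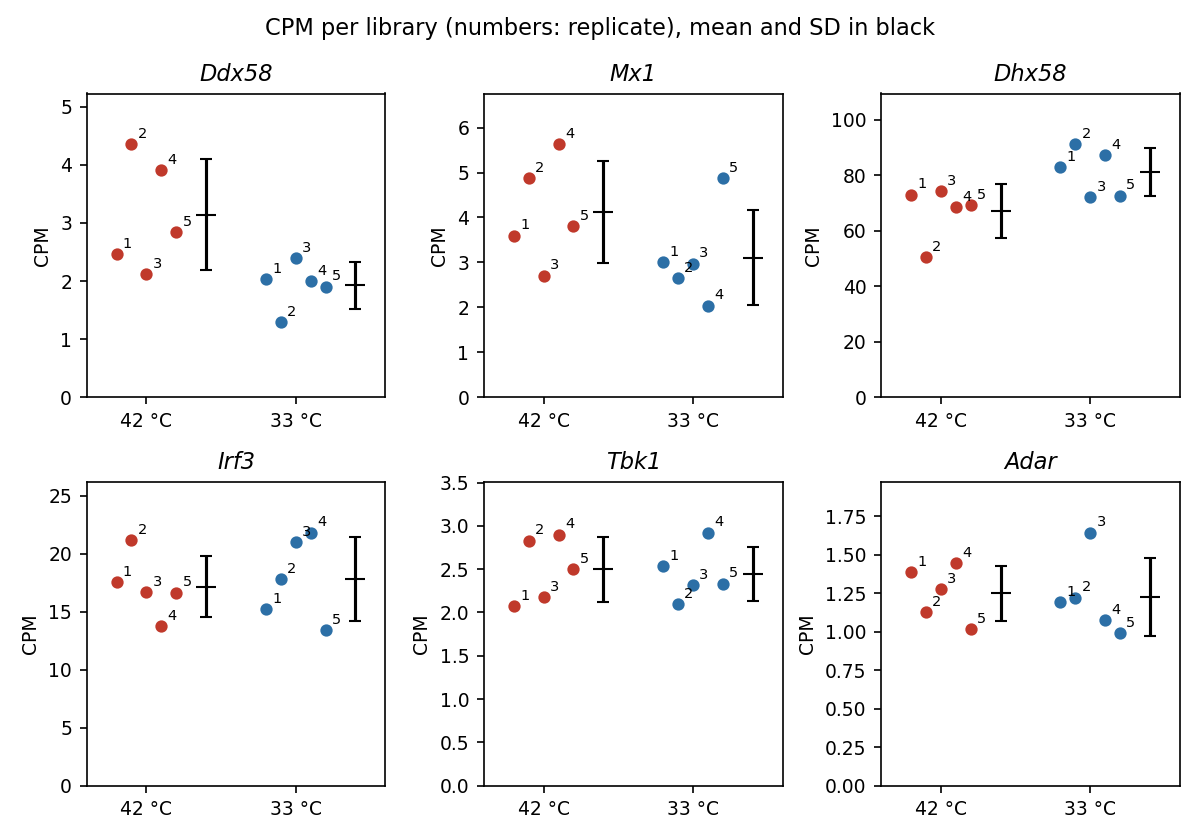
CPM of 6 of the genes in each library, with 42 °C left of 33 °C, the replicate number beside each point and the mean with its SD in black (n = 5 each). Ddx58 lies higher in 4 of 5 libraries at 42 °C (2.12 to 4.36 CPM, against 1.29 to 2.39 CPM at 33 °C) while Irf3, Tbk1 and Adar share a range.

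**Figure D3:**
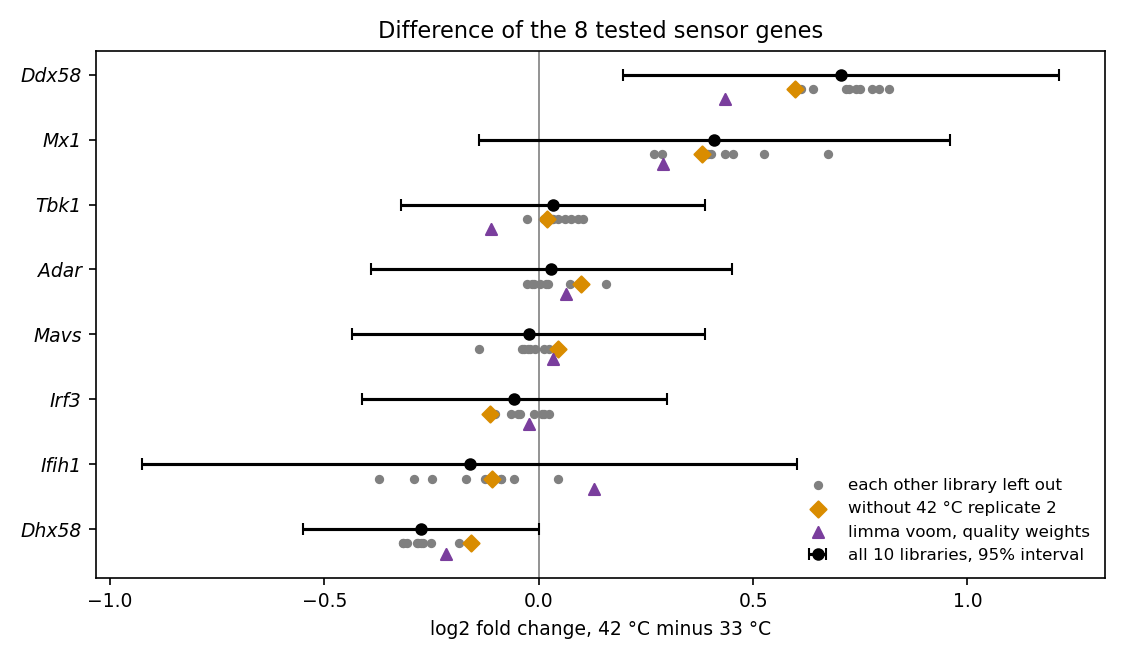
Log2 fold change (42 °C minus 33 °C) of the 8 tested genes with its 95% interval from edgeR (black), from the fits without 1 library (grey, and orange for 42 °C replicate 2) and from limma voom (purple). The interval of Ddx58 lies above 0 (0.20 to 1.21) before adjustment for all features, and the intervals of the other 7 include 0.

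The genes were also compared with each other between mice, where 10 libraries can miss weaker correlations. Those with a mean of at least 1 CPM were 6: Ddx58, Dhx58, Tbk1, Irf3, Adar and Mx1. Their 15 pairs were compared by Pearson's r and Spearman's rho of log2 CPM over the 10 libraries. By r, 1 pair passed a permutation test adjusted over the 15: Ddx58 and Dhx58 ran opposite to each other (r = -0.866, permutation p = 0.00143, adjusted p = 0.0214, and rho = -0.855, permutation p = 0.00308, adjusted p = 0.0231). Without 42 °C replicate 2 and 33 °C replicate 2, the libraries farthest from the median of Ddx58, r was -0.664. As deviations from the group means it was -0.766 and did not pass (permutation adjusted p = 0.0658), and no pair passed without 42 °C replicate 2 or without 33 °C replicate 1. The call was also lost when CPM was scaled by library totals (r = -0.782, permutation p = 0.00900, adjusted p = 0.0605). Under that scaling Dhx58 and Mx1 passed in its place (r = -0.898, permutation p = 0.00028, adjusted p = 0.0042). All of these values are shares of a library.

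With TMM scaling Dhx58 and Mx1 had r = -0.712 (permutation p = 0.0155, adjusted p = 0.116) and rho = -0.855 (permutation p = 0.00295, adjusted p = 0.0231), with r = -0.769 when replicate 2 of each group was left out. Ddx58 and Mx1 had r = 0.678 (permutation p = 0.0303, adjusted p = 0.152) and rho = 0.673 (permutation p = 0.0392, adjusted p = 0.196), with r = 0.602 without the same libraries. The highest libraries of both Ddx58 and Mx1 at 42 °C were replicates 2 and 4.

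Beyond the 10 genes, 185 other genes of nucleic acid sensing were listed in 7 groups, of which 135 could be tested. edgeR called 1 of them higher at 42 °C, Dnase2a, and 0 lower. The lists leave out Stat2, a gene of interferon signalling, which was the 1 feature of 26025 that edgeR called lower. Stat2 averaged 0.833 ± 0.143 CPM at 42 °C, against 24.4 ± 20.4 CPM at 33 °C. The edgeR adjusted p was 0.0278, for a log2 difference of -4.87. No feature was called lower with the replicate block or in any fit that left out a 42 °C library. Unadjusted p-values under 0.05 numbered 5 among the higher and 6 among the lower of the 135 genes, beside 8.56% of all features higher and 2.94% lower. Among the 135, DESeq2 and limma voom also called Dnase2a and no other. The median log2 fold change of the 135 was -0.11, beside -0.010 over all features tested, with 46 positive and 89 negative. Over the alternatives this median lay between -0.14 and -0.060, and it was -0.062 without 33 °C replicate 2. The median over all features moved as well, from -0.030 (limma voom) to 0.091 (no filter on low counts). In the fits without 1 library, from which medians of single lists are given below, it lay between -0.018 (without 42 °C replicate 5) and 0.027 (without 33 °C replicate 2).

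The 50 genes below the filter included classical products and sensors of an interferon response. Ifnb1 and Ifna4, which encode interferons, had 0 counts in all 10 libraries, and the 3 counts that a 0 allows set an upper limit of 0.00662 CPM at 42 °C and 0.00622 CPM at 33 °C. The DNA sensor Cgas had 15 counts at 42 °C and 22 at 33 °C. Oas2, an enzyme that double-stranded RNA activates, had 3 counts at 42 °C and 1 at 33 °C. Ifit1, a binder of viral RNA ends, had 2 counts at 42 °C and 6 at 33 °C, and Rsad2 had 5 at 42 °C and 12 at 33 °C. The interferon regulatory factor Irf7 had 12 counts at 42 °C and 10 at 33 °C.

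Among 23 tested RNA sensors, effectors and cofactors none passed (median -0.10), and an unadjusted edgeR p under 0.05 went to 2 of the 23 as higher and 0 as lower, beside the same 8.56% and 2.94% over all features. The median was -0.041 without 33 °C replicate 2 and -0.046 without 42 °C replicate 4. The helicase Ddx60 had 3.17 ± 1.34 CPM at 42 °C, against 1.86 ± 0.695 CPM at 33 °C (log2 difference 0.76, SE 0.32). Ddx3x, an X-linked helicase, had 2.61 ± 0.644 CPM at 42 °C, against 1.46 ± 0.672 CPM at 33 °C (log2 difference 0.83, SE 0.32). Tarbp2, a partner of Dicer that binds double-stranded RNA, had 147 ± 26.9 CPM at 42 °C, against 177 ± 16.7 CPM at 33 °C. Skiv2l, a helicase that feeds RNA to the cytoplasmic exosome, had the highest CPM of this group, 197 ± 13.5 at 42 °C and 214 ± 23.5 at 33 °C.

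For 22 tested genes of DNA sensing and nucleic acid clearance the median was -0.16, and -0.093 without 33 °C replicate 1. With a mean of at least 1 CPM it was -0.018 over 15 genes, 9 of them negative. The median over all features in that setting was -0.020. Among the 22 genes, Dnase2a, the lysosomal DNase, rose. It had 0.813, 2.56, 0.664, 2.05 and 1.37 CPM in 42 °C replicates 1 to 5, against 0.165, 0.163, 0.355, 0.128 and 0.225 CPM in 33 °C replicates 1 to 5. The groups did not overlap, as for 1.32% of all features higher at 42 °C, and 42 °C replicate 2 was the highest. On the log2 scale the difference was 2.83 (SE 0.42, edgeR adjusted p = 0.0323). The call was lost in 7 of the 10 fits without 1 library, 33 °C replicates 1, 2, 4 and 5 and 42 °C replicates 2, 4 and 5 (log2 2.60 to 2.91, edgeR adjusted p from 0.0589 to 0.107). Over all alternatives the adjusted p was 1.41e-08 (DESeq2) to 0.339. Klf1, a transcription factor of red blood cells, lies on the same strand and ends 3268 bases before the start of Dnase2a, and it averaged 1.25 ± 0.618 CPM at 42 °C, against 0.469 ± 0.0983 CPM at 33 °C. Mast1, a kinase gene that overlaps Dnase2a on the opposite strand, averaged 3.39 ± 0.866 CPM at 42 °C, against 3.14 ± 0.963 CPM at 33 °C. The part of Klf1 and Mast1 transcripts in the Dnase2a counts was not tested. In the same list, Xrcc6 (the DNA end binder Ku70) had a log2 fold change of 0.48 (SE 0.18), the DNA sensor Ifi204 had -0.86 (SE 0.35), and Rnaseh2a, the catalytic subunit of RNase H2, had 476 ± 75.9 CPM at 42 °C, against 532 ± 42.9 CPM at 33 °C, with none of these 3 past the test.

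No gene passed in the groups for signalling, brakes, Toll-like receptors, RNA editing or other interferon-stimulated genes. The negative counts below stand beside 13297 negative of 26025 features tested. Of 25 signalling genes 19 were negative (median -0.15). An unadjusted edgeR p under 0.05 went to 2 of the 25 as lower and 0 as higher, beside 2.94% and 8.56% over all features. The median was nearer 0 without 42 °C replicate 2 (-0.088) and without 33 °C replicate 1 (-0.093), 2 (-0.080, with 15 negative) or 3 (-0.095). Tbkbp1, which binds TBK1, had 0.832 ± 0.0631 CPM at 42 °C, against 1.11 ± 0.163 CPM at 33 °C without overlap (log2 -0.41, SE 0.18, edgeR adjusted p = 0.426). Tbkbp1 was the 1 gene of the 25 without overlap, lower at 42 °C, beside 0.68% of all features. The interferon receptor chain Ifnar1 had 5.73 ± 0.910 CPM at 42 °C, against 7.40 ± 1.11 CPM at 33 °C. Rela, a subunit of NF-κB, had a log2 fold change of -0.31 (SE 0.15), and the autophagy receptor Tax1bp1, with the highest CPM of the group, had 383 ± 46.3 CPM at 42 °C, against 362 ± 59.2 CPM at 33 °C.

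Of 25 brakes on sensing 16 were negative (median -0.13). The median was nearer 0 when 42 °C replicate 1 (-0.073) or 3 (-0.058) was left out. It was also nearer 0 when 33 °C replicate 2 (-0.062) or 3 (-0.071, with 13 negative) was left out. The deubiquitinase Otub1 had 24.2 ± 2.91 CPM at 42 °C, against 29.2 ± 0.994 CPM at 33 °C, without overlap (log2 -0.27, SE 0.11, edgeR adjusted p = 0.411). Otub1 was the 1 gene of the 25 without overlap, lower at 42 °C, beside 0.68% of all features. Its paralog Otub2 had 126 ± 29.9 CPM at 42 °C, against 95.6 ± 27.7 CPM at 33 °C. Rnf5, a ubiquitin ligase that targets STING, had a log2 fold change of 0.44 (SE 0.22), and Pcbp2, which directs MAVS to degradation, had 471 ± 73.5 CPM at 42 °C, against 515 ± 30.1 CPM at 33 °C.

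Of 15 tested genes around the Toll-like receptors 10 were negative (median -0.22). Without 33 °C replicate 3, 8 were negative and the median was -0.081, and without 33 °C replicate 4 the median was -0.14. Hsp90b1, the chaperone that folds these receptors, had 499 ± 121 CPM at 42 °C, against 656 ± 104 CPM at 33 °C (log2 -0.39, SE 0.18, edgeR adjusted p = 0.430). Its cofactor Cnpy3 had -0.27 (SE 0.16) and the protease Ctsk had -0.51 (SE 0.28). The receptors themselves were scarce: Tlr9 had 50 counts at 42 °C and 46 at 33 °C, and Tlr7 had 3 at 42 °C and 9 at 33 °C.

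Of 8 tested relatives of Adar, 5 were negative (median -0.06). An unadjusted edgeR p under 0.05 went to 0 of the 8, beside 8.56% of all features higher and 2.94% lower. The median was above 0 with limma voom (0.0071) and without 33 °C replicate 2 (0.0026) or 5 (0.019). It was nearer 0 when 42 °C replicate 2 (-0.032) or 5 (-0.016), or 33 °C replicate 1 (-0.037) or 3 (-0.032), was left out. Adad1, a testis protein with an adenosine deaminase domain, had 407 ± 76.0 CPM at 42 °C, against 431 ± 49.6 CPM at 33 °C. Per kb of exon Adad1 stood at 124 CPM at 42 °C, against 132 CPM at 33 °C, where Adar had 0.154 at 42 °C and 0.151 at 33 °C. The tRNA deaminase subunits Adat2 and Adat3 had log2 fold changes of 0.13 (SE 0.16) and -0.11 (SE 0.13), and Adat1 had -0.08 (SE 0.12).

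Of 17 tested interferon-stimulated genes 10 were negative (median -0.09, with 0.0066 without 33 °C replicate 3 and -0.029 without 42 °C replicate 4). Herc6, the ligase that attaches ISG15 to proteins in the mouse, had the highest CPM of the list, 46.3 ± 3.97 CPM at 42 °C, against 51.2 ± 5.16 CPM at 33 °C, although Isg15 itself was nearly absent. Uba7, the enzyme that activates ISG15, had 0.280 ± 0.108 CPM at 42 °C, against 0.116 ± 0.0764 CPM at 33 °C, from 122 counts at 42 °C and 56 at 33 °C (log2 1.25, SE 0.45, edgeR adjusted p = 0.386). Ube2l6, the next enzyme in that chain, had 23 counts at 42 °C and 14 at 33 °C, and Usp18, which removes ISG15, had 3 at 42 °C and 8 at 33 °C. Trim34a had a log2 fold change of -0.77 (SE 0.33) and Dtx3l, a ubiquitin ligase, had -0.26 (SE 0.14).

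**Figure D4:**
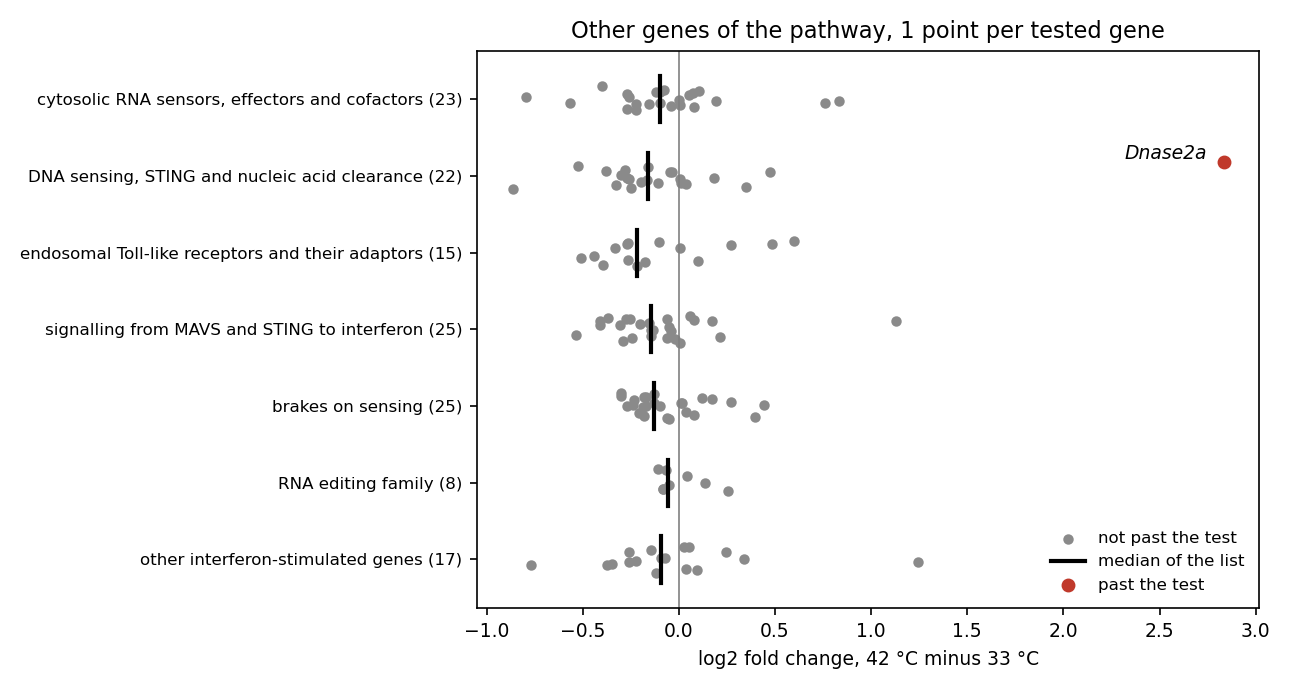
Log2 fold change (42 °C minus 33 °C) of the 135 other tested genes of the pathway in 7 groups, 1 point per gene, with the number tested in brackets and the median as a black bar. Dnase2a (red, 2.83) is the one gene past the test, and every group median lies below 0, from -0.22 to -0.06, although that of the RNA editing family is above 0 with limma voom and without 33 °C replicate 2 or 5, and that of the interferon-stimulated genes without 33 °C replicate 3.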

How the data were processed

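RNA of round spermatids from 10 mice (5 at 42 °C, 5 at 33 °C) was sequenced as stranded, ribosome-depleted total RNA, per the labels' protocols. The authors deposited raw counts for 55401 genes and 1146 TE subfamilies. Trim Galore, cutadapt, DRAGEN, GRCm38 and mm10 are named in the submitters' processing notes. For the counting tool, its strand setting and its treatment of multi-mapping reads: not given in the sources used here. Of 55141 identifiers shared with GENCODE M21, 99.35% had the same position, and exon lengths came from that annotation.

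Counts were tested with edgeR 4.0.16 in R 4.3.3 (quasi-likelihood, group only, TMM over genes and TE, filterByExpr with a minimum count of 10 and a minimum total of 15). SE is the log2 fold change over the root of F. Benjamini-Hochberg adjustment ran over all 26025 features, with a threshold of 0.05. CPM uses TMM-scaled totals. Alternatives were DESeq2 1.42.0, limma 3.58.1 voom with quality weights, other scalings and filters, a replicate block and leaving out each library. Correlations used 100000 permutations (scipy 1.17.1 and numpy 2.4.6 in Python 3.11.15), and exact ones without 1 library. The fit was tested on simulated data.

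The 10 genes and the lists were chosen with earlier results of these data known. All 10 genes were named, and of each list the 3 of smallest p (which include the one past the test) and the one of highest CPM, and genes that overlap the 10. Genes below the filter, Stat2, neighbours that do not overlap and single markers were chosen after their values were seen. Nothing says that the mice came from separate experiments, so p-values measure the spread between these mice. The 42 °C replicates 1 and 3 were closer to each other than any other pair of libraries within a group. Chi-square per degree of freedom between their counts was 13.9, against 52.6 to 290 for the other pairs. Why was not tested, and every fit counted them as separate mice.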

Additional observations from a re-analysis of the deposited data

Results flagged for a closer look

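In 74 sets of 5 libraries (the named genes, in each group) 4 values lay far from the other 4, by a gap above 0.71 of the range, where chance gives about 1 in 20. Dhx58 had 50.5 CPM in 42 °C replicate 2, against 68.6 to 74.2 CPM in the other libraries at 42 °C. Isg15 had 0.0304 CPM in 33 °C replicate 3, which is 3 counts, against 0 in the other libraries at 33 °C. Skiv2l had 220 CPM in 42 °C replicate 3, against 187 to 196 CPM in the others at 42 °C. Herc6 had 42.2 CPM in 33 °C replicate 3, against 52.2 to 54.6 CPM in the others at 33 °C. Leydig cell markers also summed highest in 33 °C replicate 3, at 19.1 CPM, and their part in the 2 values of that library was not tested.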

How the results depend on the processing

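No sensor passed the test under any of the 18 alternatives that gave it a value, and Ddx58, Dhx58 and Mx1 kept their direction in all of them. Mavs turned positive with scaling from genes only (0.014), library totals (0.018), no filter on low counts (0.022) and limma voom (0.032), Ifih1 with limma voom (0.13), and Tbk1 turned negative with limma voom (-0.11). Leaving out 1 library gave -0.14 to 0.049 for Mavs, -0.37 to 0.045 for Ifih1, -0.11 to 0.024 for Irf3, -0.028 to 0.16 for Adar and -0.027 to 0.10 for Tbk1. The cause was not tested. Of the other pathway genes 0 were called higher, in place of 1, with library totals, a mean of at least 1 CPM (which removes Dnase2a) or the replicate block, and 0 to 1 without 1 library. The pairs of correlated genes numbered 0, in place of 1, as deviations from group means, and 0 to 2 without 1 library. With library totals it was again 1, but another pair. Libraries with the same number did not deviate together (r from -0.557 to -0.104, and 0 of 5 correlated best with their own number), so the replicate block is no pairing. With it 4 features were called higher in all, in place of 23, and the log2 fold change of Ddx58 was 0.68 (edgeR adjusted p = 0.734). Over all features the number called higher was 2 with a mean of at least 1 CPM, 15 with library totals, 73 with no filter, 124 with limma voom, 257 with DESeq2 and 10 to 21 without 1 library. Depth limits Ifih1, Tlr3 and Isg15, whose few counts could hide large differences.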
